A study of Saccharomyces cerevisiae BY4741 with 6 samples.

Results

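Rho1 is the GTPase through which stress at the yeast surface reaches the cell wall integrity (CWI) pathway, and 10 genes around it were followed here. They comprise the sensors *SLG1* (also called *WSC1*) and *MID2*, the exchange factors *ROM1*, *ROM2* and *TUS1*, the GTPase *RHO1* itself, and the GTPase-activating proteins *BAG7*, *SAC7*, *BEM2* and *LRG1*. They were taken by their gene symbols and roles, and each of the 10, out of 5449 genes measured, was read by 1 probe set of the array. The cells were of BY4741, a haploid laboratory strain of mating type a in which *HIS3*, *LEU2*, *MET17* and *URA3* are disrupted, grown in YPD, a rich medium, at 30 °C. In 3 cultures neomycin sulfate, an aminoglycoside antibiotic, was present at 10 mg/mL for 4 h, and 3 cultures grown for the same time were left untreated. Each RNA was read on 1 Yeast Genome 2.0 array (Affymetrix), 6 arrays in all and n = 3 per condition. The comparison asks whether the genes that switch Rho1 on and off changed their transcript levels under an agent studied for its action on this pathway. Arrays of RNA do not measure how much Rho1 is bound to GTP, and in a whole culture a change of RNA per cell and a change in the share of cells that make it cannot be told apart.

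Rho1 is active when it carries GTP. Exchange factors load it with GTP, GTPase-activating proteins make it hydrolyse that GTP, and sensors that span the plasma membrane and reach into the wall recruit the exchange factors when the wall is stretched or damaged. Active Rho1 binds Pkc1, the protein kinase C at the head of a MAP kinase cascade that ends in Slt2 and the transcription factor Rlm1, and it is also the regulatory subunit of the enzyme that makes the glucan of the wall, as well as an activator of the formin Bni1, which builds actin cables.

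Only *BAG7* of the 10 genes passed the test with neomycin (adjusted p = 0.0408, limma). This call was lost in most fits that left out a single array, and with the replicate number as a block. The untreated signals of *BAG7* were all under a mark of background, so the size of its rise is uncertain. The measured ratio of its mean signals was 5.20, and its treated mean was 2.38-fold over that mark, an estimate and not a lower limit. The ratios of the other 9 lay between 0.800 and 1.38. The gene of the exchange factor *ROM1* was higher on every treated array, by 0.45 on the log2 scale, and that of the GTPase-activating protein *BEM2* was lower on every treated array, by 0.32, but neither passed the test over all genes. *RHO1*, both sensors, *ROM2*, *TUS1*, *SAC7* and *LRG1* had treated and untreated arrays that overlapped.

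The values are log2 signals that the authors had normalised with GCRMA, so that 1 unit is a doubling. Changes were tested with limma over all 5449 genes, 2-sided, and a gene passed at a Benjamini-Hochberg adjusted p under 0.05. By this test 1 of the 10 genes passed, upwards, against 0.514% of all genes in either direction and 0.422% upwards. By the criteria of the study's methods (a signal ratio beyond 1.7 or 0.6 and a Cyber-T p up to 0.05) it was again *BAG7* alone, against 1.82% of all genes. At an unadjusted p under 0.05 there were 3 of the 10, *BAG7*, *ROM1* and *BEM2*, against 13.4% of all genes, and the same 3 had arrays that did not overlap between the conditions, against 18.4%. Upwards these were 2 of the 10 (5.58% of all genes) and downwards 1 (12.8%). The shares of all genes became 8.50% and 10.1% when the signals were quantile-normalised again, and 8.75% and 9.43% when each array was centred on its median, and the same genes of the 10 stood above and below. The median log2 fold change of the 10 genes was 0.02, that of all genes −0.05.

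**Figure D1:**
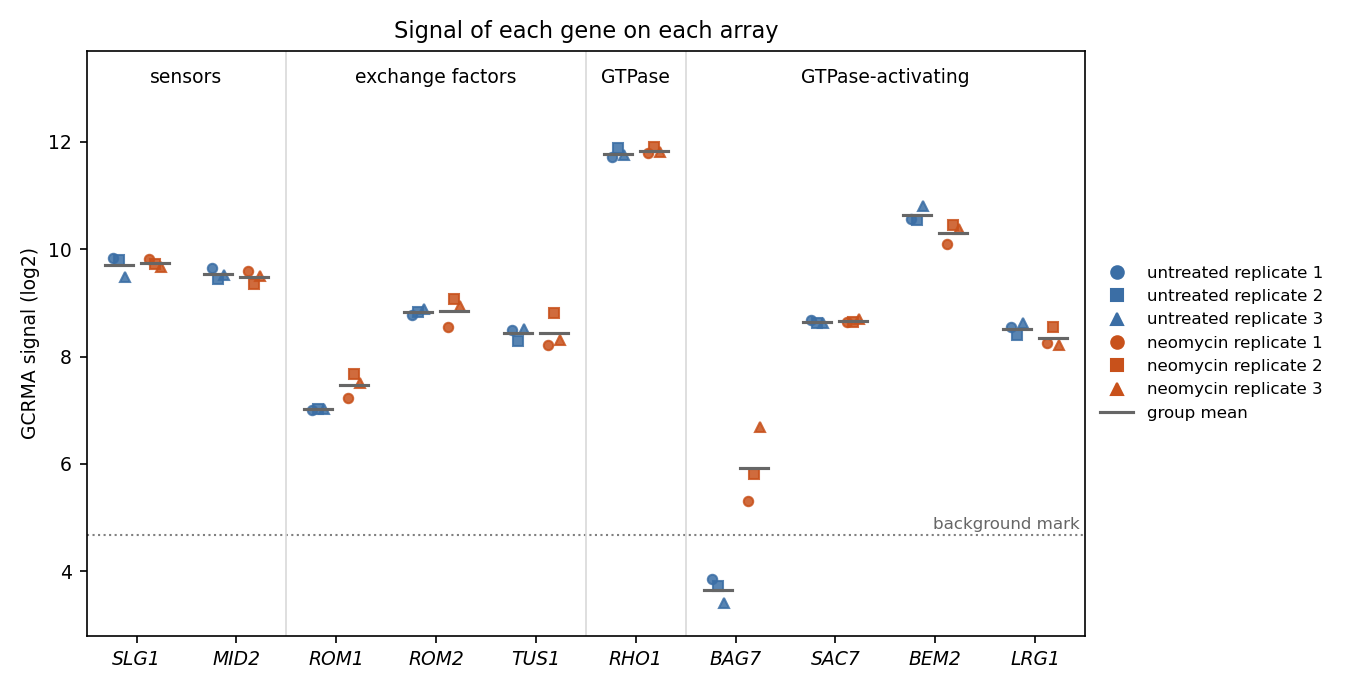
GCRMA signal (log2, vertical axis) of each of the 10 genes on the 3 untreated (blue) and 3 neomycin (orange) arrays, with bars at the group means and a dotted line at the background mark of 4.68. *BAG7* is the only one whose untreated arrays lie under the mark, and its treated arrays lie above it; heights of different genes come from different probe sets and are not comparable.

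Among the facts of the whole series, the medians of the arrays ran from 8.84 to 8.93 and the Pearson correlation between arrays, across genes that are not independent replicates, from 0.979 to 0.993. *LEU2*, *MET17* and *URA3*, disrupted in this strain, read 4.62, 3.65 and 3.45 without and 4.75, 3.73 and 3.45 with neomycin. The highest of their means over the 6 arrays, 4.68 for *LEU2*, is used below as a mark of background. *HIS3*, of which the strain keeps a part, read 10.33 without and 10.53 with neomycin. The 7 markers of a cells had changes from −1.20 to −0.21 and the 4 markers of α cells changes from −0.71 to −0.47. In both lists 0 passed the test, with lowest adjusted p-values of 0.0549 and 0.188 (limma). At an unadjusted p under 0.05 there were 5 of the 7 and 4 of the 4, all lower, against 13.4% of all genes. By the criteria of the study's methods 2 of the 7 and 0 of the 4 were lower, against 1.82% of all genes. The α-cell marker with the smallest change read 3.71 without and 3.25 with neomycin, under the background mark. The other α-cell markers had means from 5.82 to 8.29 without and from 5.28 to 7.80 with neomycin, above that mark. Whether cell type composition bears on the values of the 10 genes was not tested. The number of arrays limits the precision of every value below.

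The Slg1 and Mid2 proteins are sensors whose heavily O-mannosylated outer parts report on the wall. *SLG1* (YOR008C) read 9.84, 9.80 and 9.49 on untreated replicates 1, 2 and 3 and 9.82, 9.72 and 9.67 on neomycin replicates 1, 2 and 3. The treated arrays all fell inside the range of the untreated ones, and the log2 fold change was 0.03 with a 95% interval from −0.26 to 0.31 (adjusted p = 0.960, limma). *MID2* (YLR332W) read 9.65, 9.46 and 9.51 without and 9.60, 9.36 and 9.50 with neomycin. Its arrays overlapped as well, with 1 treated array under the untreated range, and the change was −0.05 (95% interval −0.31 to 0.20, adjusted p = 0.887). Neither sensor thus showed a difference larger than the spread between cultures, and the intervals ran from 0.836 to 1.24 times the untreated level for *SLG1* and from 0.807 to 1.15 times for *MID2*.

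The other sensors of the yeast surface, *WSC2*, *WSC3*, *WSC4* and *MTL1*, also gave 0 genes past the test. *WSC3*, a relative of *SLG1*, had the largest change, −0.30 (SE 0.13, adjusted p = 0.373), and at an unadjusted p under 0.05 there were 2 of the 4, *WSC3* and *WSC2*, both lower, against 13.4% of all genes. Their median was −0.25, against −0.05 over all genes.

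*ROM1* and *ROM2* encode the paralogous exchange factors of Rho1, of which Rom2 is the main one in growing cells and binds phosphatidylinositol-4,5-bisphosphate at the plasma membrane. *ROM1* (YGR070W) read 7.00, 7.03 and 7.02 on the untreated arrays, the narrowest spread of the 10 genes in this condition (SD 0.0146), and 7.22, 7.68 and 7.50 on the treated ones (SD 0.23). Each treated array stood above each untreated array, with a gap of 0.19 between the groups. The ratio was 1.38 and the log2 fold change 0.45 (SE 0.13, 95% interval 0.15 to 0.75), which put *ROM1* at rank 310 of the 5449 genes by size of change, and the adjusted p was 0.218. Without neomycin replicate 1, on which *ROM1* had its smallest change, the log2 fold change was 0.58 and the adjusted p 0.0472. Without any one of the other 5 arrays it stayed between 0.35 and 0.46, with adjusted p-values from 0.283 to 0.610.

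*ROM2* (YLR371W) read 8.78, 8.84 and 8.88 without and 8.56, 9.07 and 8.94 with neomycin. Neomycin replicate 1 fell under the untreated range and the other treated arrays stood above it, so that the mean change was 0.03 (95% interval −0.30 to 0.35, adjusted p = 0.963). *TUS1* (YLR425W), the exchange factor that activates Rho1 at cytokinesis, read 8.50, 8.30 and 8.52 on the untreated and 8.21, 8.80 and 8.30 on the treated arrays. Neomycin replicate 1 lay under the untreated range, neomycin replicate 2 above it and neomycin replicate 3 within it, with the widest spread of any of the 10 genes other than *BAG7* (SD 0.319), and the change was −0.0011 (95% interval −0.38 to 0.38, adjusted p = 0.998).

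*RHO1* (YPR165W) read 11.72, 11.88 and 11.75 without and 11.79, 11.91 and 11.81 with neomycin. The groups overlapped, and the log2 fold change was 0.05 (SE 0.10, adjusted p = 0.878). Its 95% interval ran from −0.18 to 0.29, or from 0.882 to 1.22 times the untreated level.

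The genes of the GTPase-activating proteins had log2 fold changes from −0.32 to 2.28, a range set by *BAG7*. Those of *SAC7*, *BEM2* and *LRG1* lay between −0.32 and 0.02. *BAG7* (YOR134W) read 3.85, 3.72 and 3.40 on untreated replicates 1, 2 and 3, all under the background mark of 4.68. On neomycin replicates 1, 2 and 3 it read 5.30, 5.82 and 6.68, all above that mark, and the lowest treated array stood 1.45 above the highest untreated one. The treated arrays were 1.64, 2.16 and 3.03 above the untreated mean. The log2 fold change was 2.28 (SE 0.31, 95% interval 1.56 to 3.00, adjusted p = 0.0408). Because the untreated signal was under the mark, the size of this change is uncertain at its lower end. The mark is the mean of *LEU2*, the highest of the disrupted genes used for it. The untreated mean of *BAG7*, 3.66, was close to that of *MET17*, 3.65, and above that of *URA3*, 3.45. With every signal under the mark set to the mark, an alternative chosen after the data had been seen, the change was 1.25 and the adjusted p 0.268, and in that fit 0 of all genes passed (776 at an unadjusted p under 0.05).

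The call of *BAG7* was lost when any one of 5 arrays was left out, with adjusted p-values of 0.132, 0.115 and 0.160 without untreated replicate 1, 2 and 3 and of 0.129 and 0.0894 without neomycin replicate 2 and 3. Without neomycin replicate 1 it was 0.00242. The change itself stayed between 1.90 and 2.59 in these fits.

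*SAC7* (YDR389W), the paralog of *BAG7*, whose product acts on Rho1 in the control of actin and of the CWI pathway, read 8.68, 8.63 and 8.62 without and 8.64, 8.64 and 8.71 with neomycin. The arrays overlapped and hardly spread (SD 0.0286 and 0.0371), and the change was 0.02 with a 95% interval from −0.19 to 0.23 (adjusted p = 0.961). *BEM2* (YER155C), whose product acts on Rho1 in bud growth, read 10.56, 10.54 and 10.81 on the untreated and 10.10, 10.46 and 10.38 on the treated arrays. Each treated array stood below each untreated one, with a gap of 0.079 between the groups that was smaller than the SD of either group (0.153 and 0.19). The ratio was 0.800 and the log2 fold change −0.32 (SE 0.13, 95% interval −0.63 to −0.02, adjusted p = 0.363), and in the 15 alternatives the change stayed below 0, from −0.40 to −0.22. *LRG1* (YDL240W), whose product acts on the Rho1 that controls glucan synthesis, read 8.54, 8.40 and 8.62 without and 8.25, 8.56 and 8.22 with neomycin. Neomycin replicate 2 lay within the untreated range and the other treated arrays under it, and the change was −0.18 (95% interval −0.47 to 0.11, adjusted p = 0.608).

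**Figure D2:**
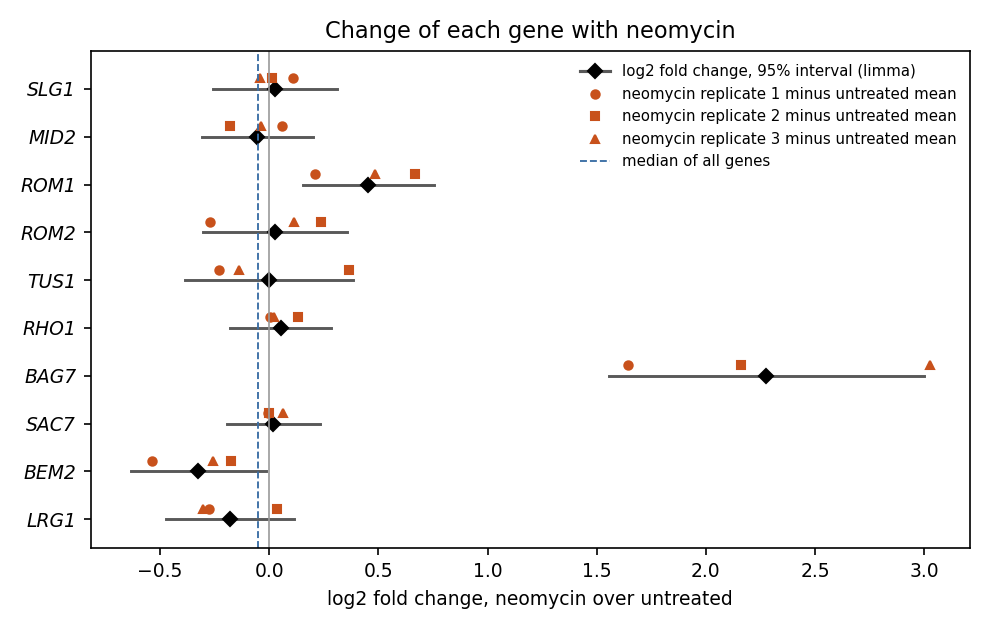
Log2 fold change with neomycin of each of the 10 genes (diamonds) with its 95% interval from limma (lines), and each treated array minus the untreated mean (orange symbols), with the median of all genes as a dashed line at −0.05. *BAG7* lies at 2.28 and the others between −0.32 and 0.45, and the intervals of *BAG7*, *ROM1* and *BEM2* do not reach 0.

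The 95% intervals, which are per gene and not adjusted for the number of genes, bound the changes that these arrays could have missed. For the 7 genes whose interval holds 0 change, it lay within 0.720 and 1.30 times the untreated level, and for the 9 genes other than *BAG7* within 0.644 and 1.69 times. The treated arrays were more scattered than the untreated ones for 7 of those 9 genes, and for *BAG7*. How often this held over all genes was not counted, so it cannot be read as a trait of these genes.

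This scatter had a common order. Neomycin replicate 1 was the lowest treated array for 7 of the 10 genes and neomycin replicate 2 the highest for 6, *ROM1*, *ROM2*, *TUS1*, *RHO1*, *BEM2* and *LRG1*. The sensors went the other way, with neomycin replicate 1 the highest treated array for both *SLG1* and *MID2*. Over all genes neomycin replicate 1 was likewise the lowest treated array for 51.2% and neomycin replicate 2 the highest for 52.2%, and the median change of all genes was −0.11, 0.03 and −0.05 on neomycin replicates 1, 2 and 3. Relative to these medians *ROM1* was 0.32, 0.64 and 0.53 higher on neomycin replicates 1, 2 and 3, *BEM2* 0.43, 0.20 and 0.21 lower, and *ROM2* at −0.16, 0.21 and 0.16.

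*BAG7* and *SAC7*, and likewise *ROM1* and *ROM2*, are pairs of paralogs, and the difference between the partners on one array does not depend on the scaling of that array by a constant. *BAG7* minus *SAC7* was −4.83, −4.92 and −5.22 on the untreated and −3.34, −2.83 and −2.02 on the treated arrays. The treated arrays lay above the untreated ones, and the change of *BAG7* exceeded that of *SAC7* by 2.26 (exact permutation test, 2-sided, p = 0.1, the smallest this test can give for 3 arrays against 3), or by 1.23 with signals under the background mark set to it. Since *SAC7* stayed between 8.62 and 8.71 on all arrays, this difference mostly repeats the change of *BAG7* itself, 2.28. *ROM1* minus *ROM2* was −1.78, −1.81 and −1.87 without and −1.34, −1.39 and −1.44 with neomycin. These groups did not overlap either, and the change of *ROM1* exceeded that of *ROM2* by 0.43 (exact permutation test, 2-sided, p = 0.1, again the smallest possible). The treated arrays, which for *ROM1* alone spanned 7.22 to 7.68, spanned only −1.44 to −1.34 for this difference, and leaving out any one array kept it between 0.40 and 0.45. The pairs were compared with earlier results of these arrays known, and whether a probe set also reads RNA of its gene's paralog was not tested.

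**Figure D3:**
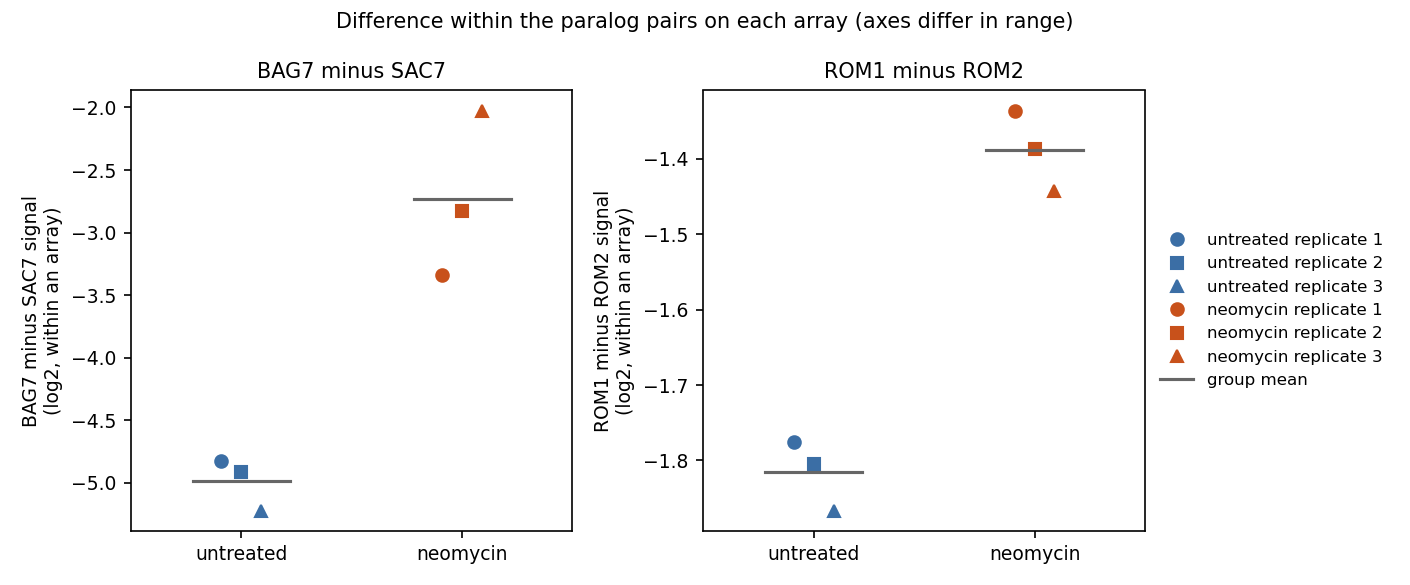
Difference of the log2 signals within a pair of paralogs (vertical axis) on each untreated (blue) and neomycin (orange) array, for *BAG7* minus *SAC7* on the left and *ROM1* minus *ROM2* on the right, with bars at the group means. In both pairs the 3 treated arrays lie above the 3 untreated ones, by 2.26 (1.23 with signals under the background mark set to it) and 0.43 on average; the vertical axes differ in range and do not start at 0.

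Around Rho1, 3 of 26 other genes of the pathway in 4 lists rose and 0 fell, against 0.514% of all genes, and 7 reached an unadjusted p under 0.05, 4 of them higher and 3 lower, against 13.4% of all genes. *GSC2*, a catalytic subunit of the glucan synthase that Rho1 activates, read 9.35, 9.20 and 9.87 without and 10.87, 11.35 and 11.70 with neomycin (log2 fold change 1.83, SE 0.24, adjusted p = 0.0401), and each treated array stood above each untreated one. *FKS1*, the gene of the alternative subunit, had a change of 0.06 (adjusted p = 0.880). The other genes that rose were *SLT2*, the MAP kinase at the end of the cascade, with 0.82 (SE 0.13, adjusted p = 0.0464), and *KDX1*, also called *MLP1*, which encodes a pseudokinase related to Slt2, with 1.08 (SE 0.16, adjusted p = 0.0421).

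Of the 6 effectors of Rho1 that were listed, *GSC2* was the 1 that passed, and *PKC1* had a change of −0.27 (SE 0.11, adjusted p = 0.363) with treated arrays below untreated ones. Of the 8 genes of the cascade and its transcription factors 2 passed, and *RLM1* had a change of 0.47 (SE 0.13, adjusted p = 0.191). *BCK1*, *MKK1* and *MKK2*, the kinases between Pkc1 and Slt2, had changes from −0.16 to −0.02. A further 8 genes were grouped around phosphoinositides and the regulation of Rom2, Pkc1 and the sensors, among them the phosphoinositide kinases *STT4* and *MSS4*. Of these 8, 0 passed and 0 reached an unadjusted p under 0.05. The largest value was that of *PKH1*, a kinase that phosphorylates Pkc1 (0.23, SE 0.16, adjusted p = 0.590). Over the 23 pathway genes that did not pass, the changes ran from −0.30 to 0.47. *BAG7*, *GSC2*, *KDX1* and *SLT2* each lost their call without neomycin replicate 2 or 3 or without untreated replicate 1, 2 or 3, and each kept it without neomycin replicate 1.

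**Figure D4:**
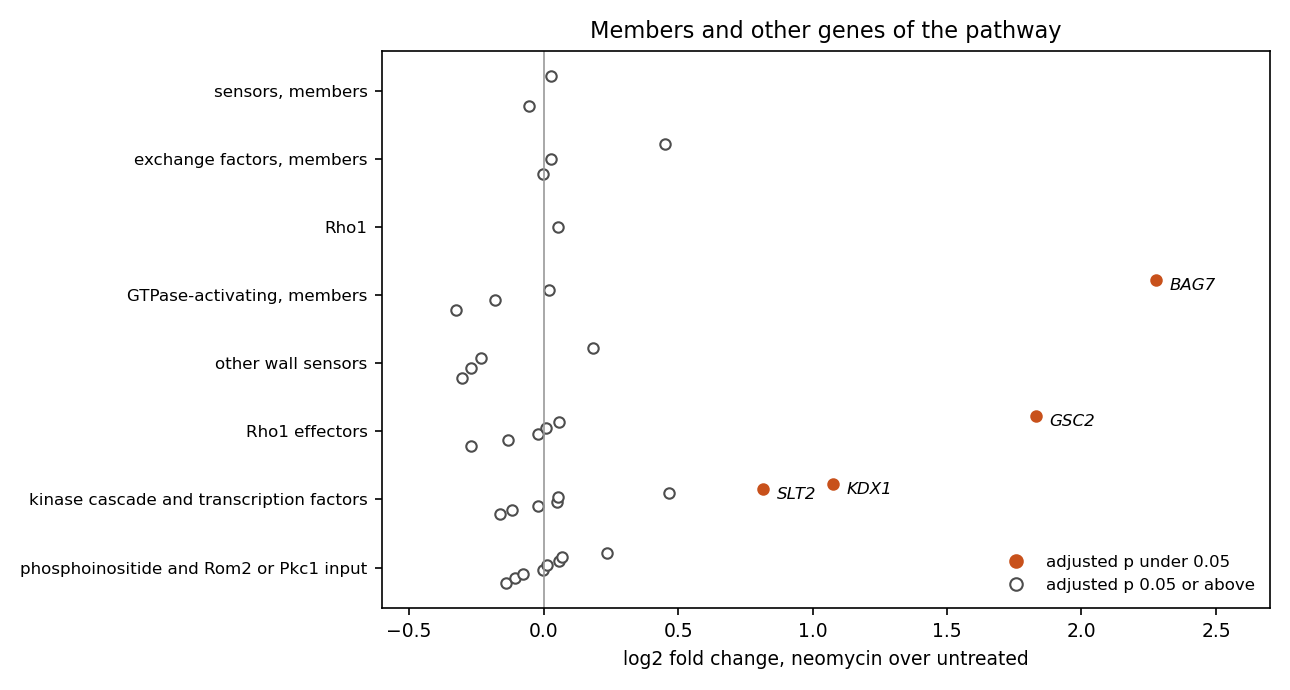
Log2 fold change with neomycin (horizontal axis) of the 10 genes, by role, and of the 26 other genes of the pathway, by list, with genes past an adjusted p under 0.05 filled and named. *BAG7*, *GSC2*, *KDX1* and *SLT2* lie at 2.28, 1.83, 1.08 and 0.82, and every gene that did not pass lies between −0.32 and 0.47.

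The genes whose signals followed those of *BAG7* most closely over the 6 arrays were *DDR2*, a multistress gene (Pearson r = 0.997), *SLT2* (r = 0.992), *KHA1*, a putative cation-proton antiporter (r = 0.990), *PIR3*, a covalently bound wall protein (r = 0.989), and *CPA1*, a subunit of the carbamoyl phosphate synthetase of arginine synthesis (r = 0.988). These are the 5 highest correlations with *BAG7* among all genes, over 6 arrays that fall into 2 conditions, and they are given as a description. All 5 genes were higher on each treated array than on each untreated array, with log2 fold changes from 0.55 for *KHA1* to 1.94 for *PIR3*. All 5, like *BAG7*, were lowest on neomycin replicate 1 and highest on neomycin replicate 3 among the treated arrays. Choosing genes by their correlation with *BAG7* makes such a shared pattern likely, so it is not a separate result. *DDR2*, *SLT2* and *PIR3* passed the test, with adjusted p-values of 0.0401, 0.0464 and 0.0255 (limma). The same choice favours genes that differ between the conditions, so these calls are not a separate result either.

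By the order of genes in RefSeq assembly R64, which leaves out some reading frames, *BAG7* lies between *EFT1*, which was not analysed here, and *IDH2*, a subunit of the mitochondrial isocitrate dehydrogenase. *IDH2* had a change of 0.31 (SE 0.14, adjusted p = 0.385) and its arrays overlapped between the conditions. Over the 10 genes, 14 of the 20 neighbours were measured and 0 passed, with changes from −0.20 to 0.31.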

How the data were processed

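RNA of 3 untreated and 3 neomycin cultures was hybridised to 1-colour arrays, and the groups and replicate numbers are those of the sample titles. The authors converted the intensities with GCRMA (version not given in the sources used here), and the deposited values are log2 signals of 5716 probe sets, from 2.22 to 14.31, with no depth to state. Of these, 5498 name 1 gene in the platform annotation, 0 several and 218 none. The probe set with the highest mean was taken for each of 5449 genes, 47 of which have several. All 5449 matched RefSeq by gene ID.

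The fit used R 4.3.3 and limma 3.58.1, with lmFit and then eBayes (4.03 prior degrees of freedom), had no covariates and was adjusted by Benjamini-Hochberg over 5449 genes. The script was tested on simulated data. The Cyber-T p of the study's methods was rebuilt. Its confidence (10), window (101 genes) and degrees of freedom (22) are not stated in the methods. Figures were drawn with matplotlib 3.10.9.

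The members, lists and tests were chosen with earlier results of these data known. Named are the 10 genes, in each pathway list the genes past the test or else the one with the largest change, the neighbours of *BAG7*, any neighbour past the test, the 5 genes most like *BAG7*, and the genes disrupted in BY4741. *WSC2*, *PKC1*, *FKS1*, *RLM1*, *BCK1*, *MKK1* and *MKK2* are named outside this rule, after their values were seen. *WSC4*, *MTL1*, *STT4* and *MSS4* are also named outside it, to say what their lists hold. Tried beside this fit were quantile normalisation again, median centring, averaging a gene's probe sets, a block for the replicate number, leaving out the 1362 dimmest genes, an intensity trend, a robust prior, an adjusted p under 0.1, the methods' criteria, each array left out in turn and a floor at the background mark. The labels call the replicates biological. Sequences are not shown, and 2 further gene lists are not reported here.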

Additional observations from a re-analysis of the deposited data

How the results depend on the processing

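The count of 1 gene of the 10 past the test was 1 under quantile normalisation, median centring, the mean of probe sets, an intensity trend, a robust prior, an adjusted p under 0.1 and the methods' criteria, and it was *BAG7* each time. It was 0 with the replicate number as a block, 0 without the 1362 dimmest genes, which include *BAG7* and *ROM1*, and 0 with the floor at the background mark, and it ranged from 0 to 2 when arrays were left out. The count of 3 pathway genes was 0 with the block and 0 with the floor, ranged from 0 to 3 when arrays were left out, and was 2 without the dimmest genes, which include *KDX1*. The cause of the lost calls under the floor was not tested. With the replicate block 0 of all 5449 genes passed (662 at an unadjusted p under 0.05) and the adjusted p of *BAG7* was 0.110. Whether same-numbered cultures were paired is not stated by the labels. The deviations of same-numbered arrays from their group means correlated by −0.00030, −0.376 and 0.443 over genes for replicates 1, 2 and 3. Arrays of different number were not compared in this way, so these values cannot decide whether the cultures were paired. The exact p of both paralog differences was 0.25 within replicate numbers, the smallest possible there, and the differences ranged over all alternatives from 1.23 to 2.56 for *BAG7* and *SAC7* and from 0.40 to 0.45 for *ROM1* and *ROM2*. The median change of the 10 genes stayed between 0.01 and 0.06. The directions of *SLG1*, *MID2*, *ROM2*, *TUS1* and *SAC7*, which are not calls, held in 13, 13, 12, 8 and 14 of 15 alternatives, and those of *RHO1*, *BEM2* and *LRG1* in all 15. Over all genes limma called 23 higher and 5 lower, but 50 and 5 after quantile normalisation, 42 and 7 after centring, 40 and 7 without the dimmest genes, 48 and 14 with an intensity trend and 59 and 23 at an adjusted p under 0.1, and the methods' criteria called 79 and 20. Without neomycin replicate 1 there were 119 and 23, without untreated replicate 3 there was 1 of each, and without any one of the other 4 arrays there were 0 (444 to 820 at an unadjusted p under 0.05).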
